A study of Mus musculus with 35 samples.

Results

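The comparison concerns how an earlier pregnancy changed gene expression in the luminal cells of the mouse mammary gland, and where the change in Sca1-positive luminal cells differed from that in Sca1-negative luminal cells. The measure was a difference of differences: parous minus nulliparous in Luminal CD24+High Sca1+ cells, minus the same quantity in Luminal CD24+High Sca1- cells. It used 12 of the 35 samples of the series, 3 in each of 4 groups, and it was computed for 19937 genes with a probe set of a single symbol. Parous mice were mated 42 days after birth, went through pregnancy, and had 21 days for lactation and 40 days for involution, in which the gland shrinks back once suckling ends. Nulliparous mice were virgins of the same age. The strain is not given in the labels. Each of the 12 samples was RNA from 10000 sorted cells of the 4th mammary glands of 5 pooled mice, amplified and run on 1 array, and the labels call the 3 samples of a group biological replicates. Sca1 and CD24 are surface proteins used for the sort. A positive difference below means that the value after pregnancy, relative to virgins, was higher in Sca1-positive than in Sca1-negative cells. Values are on the log2 scale, where 1 unit is a 2-fold change.

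Luminal cells line the ducts and alveoli of the gland and are surrounded by basal, contractile cells. Sca1-positive luminal cells are known to be rich in estrogen and progesterone receptors and act as hormone-sensing cells. Sca1-negative luminal cells include the Kit- and Elf5-expressing progenitors from which the milk-secreting alveolar cells derive. A full pregnancy expands the alveolar cells, lactation fills them, and involution removes most of them, and a parous gland can keep some of the changed cells.

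The labels of the 12 samples were set against marker genes. Krt8 lay at 12.36 to 12.65 in all 12 luminal samples and at 10.43 to 11.49 in the basal samples of the series. Kit was at 8.70 to 9.49 in the Sca1-negative samples and at 5.67 to 6.15 in the Sca1-positive ones, and Elf5 at 8.52 to 9.50 and 5.36 to 6.32. Esr1, the estrogen receptor gene, was at 7.12 to 7.90 in the Sca1-negative and 8.54 to 8.96 in the Sca1-positive samples. Of the progenitor markers, Itgb3 did not separate the subpopulations, with 6.30 to 6.98 and 6.26 to 6.65. Ly6a, the gene of Sca1 itself, had no probe set of its own and was not used here. Replicates correlated across genes at 0.983 to 0.991 over 12 pairs.

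Few genes passed the test of a different parity effect in the 2 luminal subpopulations, and Trpm6, Klk11, Lipm, Syt14 and Id2 led them. In limma's moderated test with Benjamini-Hochberg adjustment over all genes, 19 of 19937 genes (0.0953%) were called at an adjusted p under 0.05. The difference was positive for 9 genes (0.0451%) and negative for 10 (0.0502%). At an unadjusted p under 0.05, 1175 genes (5.89%) passed. The called differences ranged in size from 0.77 to 2.27, with standard errors (SE) of 0.14 to 0.32, against a median size of 0.15 and a median SE of 0.21 over all genes.

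Most of the called differences came from a change in Sca1-negative cells. The parity effect itself was called for 200 genes (1.00%) in Sca1-negative cells, 0.662% of genes higher and 0.341% lower in parous mice. In Sca1-positive cells it was called for 121 genes (0.607%), 0.426% higher and 0.181% lower. Among the 19 genes, 14 had a called parity effect in Sca1-negative cells and none in Sca1-positive cells, 8 of them higher and 6 lower in parous mice. A further 4 had a called effect in Sca1-positive cells, 3 higher (Syt14, Tmem116, Vcam1) and 1 lower (Dach2). The predicted gene Gm5174 was called in neither, and 0 genes in both. The larger effect was in Sca1-negative cells for 15 genes, and the effects had opposite signs for 11. Since the difference is made of these effects, the counts describe its parts and are no separate evidence.

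**Figure D1:**
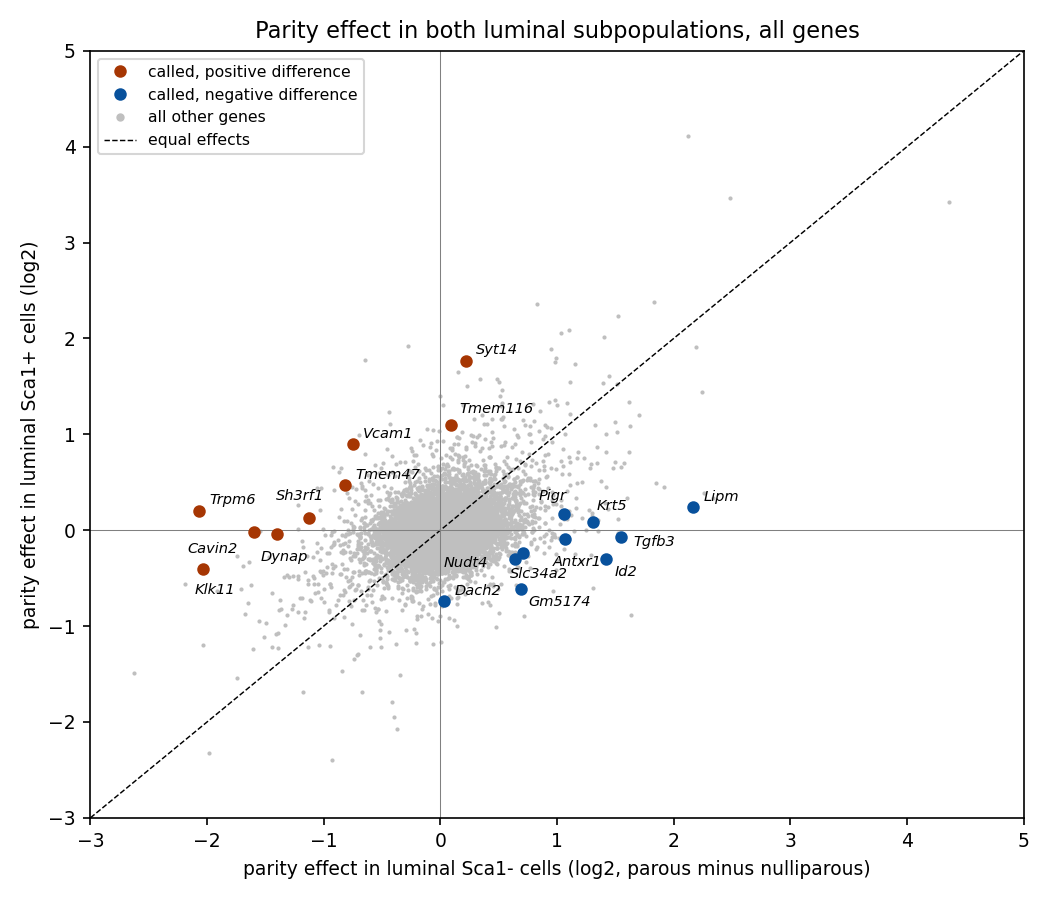
Parity effect (parous minus nulliparous, log2) in luminal Sca1-negative cells on the x axis and in luminal Sca1-positive cells on the y axis, 1 point per gene for 19937 genes, with the 19 called genes in colour and the line of equal effects dashed. The called genes lie away from the dashed line, 9 above it and 10 below it, and most of them lie near 0 on the y axis.

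Trpm6 had the largest difference among the called genes. Its protein is an ion channel with a kinase domain that carries magnesium across epithelia. In Sca1-negative cells it stood at 7.73, 7.96 and 8.10 in nulliparous pools 1 to 3 and at 5.64, 6.27 and 5.67 in parous pools 1 to 3. Sca1-positive cells had Trpm6 at 5.50, 5.79 and 5.52 in nulliparous and 5.83, 5.90 and 5.70 in parous pools. The 3 nulliparous Sca1-negative samples were thus the only high ones of the 12, and the other 9 lay between 5.50 and 6.27, where the Sca1-positive histories overlapped. The nulliparous Sca1-positive values lay under the sample medians of 5.813 to 5.924, and how much room they left for a fall was not tested. Trpm6 fell by 2.07 (SE 0.21, adjusted p = 5.6e-07) in Sca1-negative cells, against 0.20 (SE 0.21, 95% interval -0.22 to 0.63) in Sca1-positive cells. The difference was 2.27 (SE 0.29, adjusted p = 2.1e-04).

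The other magnesium and TRP channel genes were mixed. Of 22 measured genes in this list, Trpm6 was the only one called for the difference, where 0.0953% of all genes were called. At an unadjusted p under 0.05 the magnesium transporter gene Slc41a3 passed in the same direction (0.38) and Cnnm3 in the other (-0.38), and the median difference was -0.02, against 0.03 over all genes. Trpm7, its closest relative with the same channel and kinase build, had a difference of -0.39 (95% interval -0.83 to 0.05). The magnesium transporter genes Slc41a1 (0.82, adjusted p = 0.0497) and Slc41a2 (0.79, adjusted p = 0.0356) rose in Sca1-negative cells, while their effects in Sca1-positive cells were 0.24 and 0.38. Their differences of -0.58 and -0.41 did not pass (adjusted p = 0.868 and 0.926).

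Klk11 was likewise high in nulliparous Sca1-negative cells. Kallikrein-related peptidases are secreted serine proteases, encoded in a gene cluster and known from the shedding of outer skin and from glandular secretions. Klk11 was at 6.96, 6.39 and 6.89 in nulliparous Sca1-negative pools and at 4.62, 4.74 and 4.77 in parous ones. Sca1-positive cells had Klk11 at 4.80, 4.54 and 4.67 in nulliparous and 4.26, 4.19 and 4.33 in parous pools. All these Sca1-positive values lay under the sample medians of 5.813 to 5.924, and how much room they left for a fall was not tested. Parous samples were the lower ones in both subpopulations, without overlap, but the step was far larger in Sca1-negative cells. Klk11 fell by 2.04 (SE 0.18, adjusted p = 7.6e-08) there, against -0.41 (SE 0.18, adjusted p = 0.648) in Sca1-positive cells, with a difference of 1.63 (SE 0.25, adjusted p = 0.00226).

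Its neighbour Klk10 moved in the same direction without passing the test of the difference. Klk10 was at 7.57, 8.49 and 8.49 in nulliparous and 6.31, 6.78 and 6.22 in parous Sca1-negative pools. In Sca1-positive cells it was at 6.24, 7.03 and 6.46 in nulliparous and 5.98, 6.54 and 6.40 in parous pools, which overlap. It fell by 1.74 (SE 0.24, adjusted p = 8.1e-05) in Sca1-negative cells, and its difference was 1.48 (SE 0.34, adjusted p = 0.0944, 95% interval 0.79 to 2.16). It was called in 1 of 12 fits that left out 1 luminal sample, with a difference of 1.78 and an adjusted p of 0.0124 without nulliparous Sca1-negative pool 1. In the other 11 fits the adjusted p reached 0.282. Without nulliparous pool 3 in every subpopulation the difference was 1.26 (adjusted p = 0.482), and without nulliparous pool 1 in every subpopulation it was 1.61 (adjusted p = 0.0171). Spink5, which encodes an inhibitor of kallikreins, went the same way, from 5.79, 5.19 and 5.71 to 4.85, 4.65 and 4.73 in Sca1-negative cells. It lay between 4.09 and 4.37 in all 6 Sca1-positive samples, and its difference of 0.75 did not pass (adjusted p = 0.258). Of 17 measured genes in the kallikrein and inhibitor list, Klk11, Klk10 and Spink5 fell in Sca1-negative cells and 0 rose, where 0.341% of all genes were called lower and 0.662% higher. Their list had a median effect of -0.17 there, against -0.04 over all genes, and a median difference of 0.13, against 0.03. It holds the marker Klk11 and was chosen with earlier results of these data known, so its counts and medians are no separate evidence.

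Lipm had the largest rise among the 19 genes. It encodes a member of the acid lipase family that is known from the outer layers of the epidermis. In Sca1-negative cells it was at 5.53, 5.02 and 5.07 in nulliparous and at 8.02, 6.87 and 7.23 in parous pools. In Sca1-positive cells it was at 4.44, 4.43 and 4.49 in nulliparous and 5.01, 4.65 and 4.42 in parous pools. The 3 parous Sca1-negative samples were the highest of the 12 and did not overlap with any other group, with pool 1 above the other two. Lipm rose by 2.17 (SE 0.21, adjusted p = 1.9e-07) in Sca1-negative cells, its effect in Sca1-positive cells was 0.24 (SE 0.21), and the difference was -1.93 (SE 0.29, adjusted p = 0.00221). The call was lost when the 12 luminal samples were fitted alone (adjusted p = 0.0692).

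Among the 6 measured acid lipase genes, Lipm was the only one called for the difference, where 0.0953% of all genes were called. Lipa, the lysosomal acid lipase, rose by 1.33 (adjusted p = 0.0253) in Sca1-negative cells, from 8.88, 8.12 and 8.50 to 10.03, 9.82 and 9.62. Its effect in Sca1-positive cells was 1.10 (adjusted p = 0.126), from 6.24, 5.28 and 5.35 to 6.49, 6.99 and 6.69. Histories did not overlap in either subpopulation, and the difference for Lipa was -0.23 with a 95% interval of -1.11 to 0.66. Lipk and Lipn, the genes on 1 side of Lipm, had differences of -0.27 and 0.16, and neither passed.

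**Figure D2:**
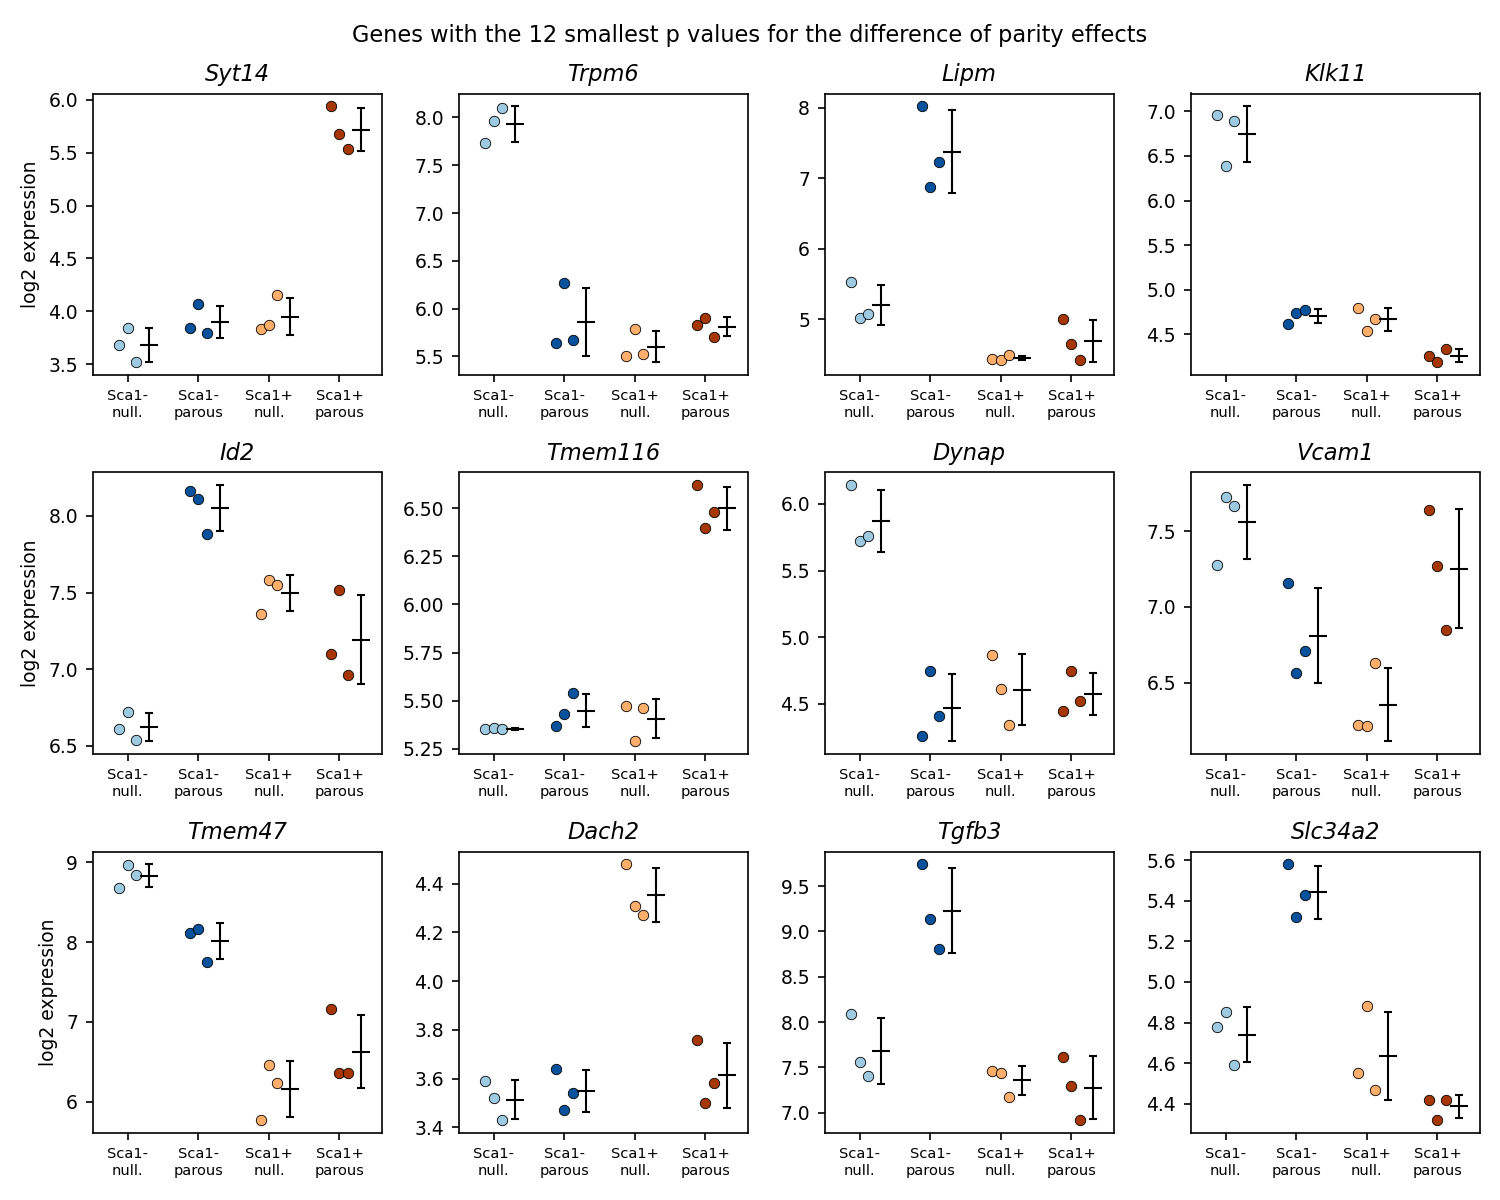
Log2 expression in each of the 12 samples for the genes with the 12 smallest p values, in 4 groups of 3 pools (null. is nulliparous), with the group mean and SD as a bar beside the points. Trpm6, Klk11 and Dynap are high in nulliparous Sca1-negative samples, Lipm, Id2, Tgfb3 and Slc34a2 in parous Sca1-negative samples, and Syt14 and Tmem116 in parous Sca1-positive samples.

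The promoters of Trpm6, Klk11 and Lipm, the marker genes given for this comparison, and of Klk10 are shown, since Klk10 and Klk11 lie next to each other and fell together in Sca1-negative cells. They are taken from RefSeq on build GRCm38.p6, in each case with 250 bases before and 50 after the annotated start, and all 4 genes are on the plus strand. Trpm6 is at chr19:18749480-18749779, Klk11 has annotated starts at chr7:43774367-43774666 and chr7:43776079-43776378, Klk10 is at chr7:43780804-43781103 and Lipm at chr19:34100693-34100992. Capitals mark matches to TTCNNNGAA, the type of site bound by STAT5, and to AGGAAG on either strand, a core of ETS factor sites. STAT5 and the ETS factor Elf5 are known regulators of alveolar cells.
Trpm6: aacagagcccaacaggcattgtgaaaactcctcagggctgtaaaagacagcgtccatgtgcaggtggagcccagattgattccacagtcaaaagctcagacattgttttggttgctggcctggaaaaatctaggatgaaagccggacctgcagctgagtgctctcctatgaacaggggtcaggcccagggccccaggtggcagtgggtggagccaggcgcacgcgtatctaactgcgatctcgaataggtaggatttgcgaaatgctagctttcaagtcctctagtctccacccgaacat
Klk11 start 1: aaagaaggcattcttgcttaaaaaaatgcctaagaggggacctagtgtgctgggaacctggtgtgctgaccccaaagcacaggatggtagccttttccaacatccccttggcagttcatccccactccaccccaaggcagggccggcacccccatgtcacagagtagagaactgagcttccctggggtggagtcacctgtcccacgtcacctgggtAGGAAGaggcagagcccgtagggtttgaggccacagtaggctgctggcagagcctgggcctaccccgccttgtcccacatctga
Klk11 start 2: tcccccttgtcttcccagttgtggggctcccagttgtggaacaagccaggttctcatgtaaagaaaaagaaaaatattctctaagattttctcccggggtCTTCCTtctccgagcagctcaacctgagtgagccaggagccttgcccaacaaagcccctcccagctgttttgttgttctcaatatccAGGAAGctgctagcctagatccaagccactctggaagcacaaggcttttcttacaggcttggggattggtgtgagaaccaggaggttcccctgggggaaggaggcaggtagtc
Klk10: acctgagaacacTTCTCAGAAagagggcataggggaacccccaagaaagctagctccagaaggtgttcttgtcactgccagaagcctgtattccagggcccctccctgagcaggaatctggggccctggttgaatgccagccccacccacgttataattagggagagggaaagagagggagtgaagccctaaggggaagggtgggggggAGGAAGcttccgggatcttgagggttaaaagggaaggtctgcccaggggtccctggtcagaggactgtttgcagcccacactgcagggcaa
Lipm: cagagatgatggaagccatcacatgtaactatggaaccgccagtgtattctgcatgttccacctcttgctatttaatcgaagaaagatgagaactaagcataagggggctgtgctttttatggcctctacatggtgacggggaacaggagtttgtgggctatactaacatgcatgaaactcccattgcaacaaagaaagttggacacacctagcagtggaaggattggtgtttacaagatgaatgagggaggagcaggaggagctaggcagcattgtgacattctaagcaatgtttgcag
In these windows Klk10 had 1 match to TTCNNNGAA and 1 to AGGAAG, the Klk11 starts had 1 and 2 matches to AGGAAG, and Trpm6 and Lipm had 0 of either, with 0 bases shared between matches. Of 32851 promoters of the same length, 8.3% held TTCNNNGAA and 35.4% held AGGAAG, so the matches are a description of these letters. The next genes on the other side of Klk11 were Klk12 and Klk13, with differences of 0.31 and 0.13, and Klk9, beyond Klk10, had 0.25. None of these 3 passed, nor did the 2 measured genes on either side of Trpm6 (differences of -0.74 to 0.17) or of Lipm (-0.27 to 0.51).

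A smaller set of genes changed in Sca1-positive cells. Syt14, a member of the synaptotagmin family of membrane trafficking proteins, had the smallest p value. It was at 3.83, 3.87 and 4.15 in nulliparous and 5.94, 5.68 and 5.54 in parous Sca1-positive pools. In Sca1-negative cells it was at 3.68, 3.84 and 3.52 in nulliparous and 3.84, 4.07 and 3.79 in parous pools. The 3 parous Sca1-positive samples stood above the other 9, which lay between 3.52 and 4.15. Syt14 rose by 1.77 (SE 0.12, adjusted p = 3.4e-10) in Sca1-positive cells, its effect in Sca1-negative cells was 0.22 (SE 0.12), and the difference was 1.55 (SE 0.17, adjusted p = 2.1e-05).

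Tmem116, a transmembrane protein gene, had the same form on a smaller scale. It was at 5.47, 5.29 and 5.46 in nulliparous and 6.62, 6.40 and 6.48 in parous Sca1-positive pools, and between 5.35 and 5.54 in the 6 Sca1-negative samples. The difference was 1.01 (SE 0.18, adjusted p = 0.0146). It was 0.97 (adjusted p = 0.0590) without parous Sca1-negative pool 1 and 0.95 (adjusted p = 0.0543) without nulliparous Sca1-positive pool 2. Dach2, a transcriptional cofactor of the dachshund family, was the only one of the 19 with a called fall in Sca1-positive cells. It was at 4.48, 4.31 and 4.27 in nulliparous and 3.76, 3.50 and 3.58 in parous Sca1-positive pools, against 3.43 to 3.64 in the Sca1-negative samples. The parous Sca1-positive samples thus overlapped with the Sca1-negative ones, and the difference was -0.77 (SE 0.14, adjusted p = 0.0166).

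Vcam1, an adhesion molecule of endothelial and other cells, moved in opposite directions. It was at 6.22, 6.21 and 6.63 in nulliparous and 7.64, 7.27 and 6.85 in parous Sca1-positive pools. In Sca1-negative cells it was at 7.28, 7.73 and 7.67 in nulliparous and 7.16, 6.56 and 6.71 in parous pools. Histories did not overlap in either subpopulation. It rose by 0.90 (SE 0.21, adjusted p = 0.0348) in Sca1-positive cells, while the effect of -0.75 (SE 0.21, adjusted p = 0.0849) in Sca1-negative cells did not pass, and the difference was 1.65 (SE 0.30, adjusted p = 0.0146). In bulk samples, fewer cells of a type and less RNA per cell cannot be told apart. The mean of 10 endothelial markers was 5.73 to 6.06 in parous and 5.23 to 5.54 in nulliparous Sca1-positive samples, and 5.63 to 5.88 and 5.66 to 5.93 in Sca1-negative samples. Of these 10 markers 0 were called for parity in either subpopulation, where 0.607% of all genes were called in Sca1-positive and 1.00% in Sca1-negative cells. The median effect of the 10 was 0.27 in Sca1-positive and 0.00 in Sca1-negative cells, against -0.01 and -0.04 over all genes. Pecam1 had effects of 1.05 and -0.07 in Sca1-positive and Sca1-negative cells and Cdh5 of 1.40 and 0.00. The part of endothelial cells in the Vcam1 result was not tested.

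Id2 and Tgfb3 rose in Sca1-negative cells, while their effects in Sca1-positive cells did not pass. Id2 encodes a protein that binds basic helix-loop-helix factors and keeps them from DNA, and mice without it are known to fail in alveolar development and lactation. It was at 6.61, 6.72 and 6.54 in nulliparous and 8.16, 8.11 and 7.88 in parous Sca1-negative pools. In Sca1-positive cells it was at 7.36, 7.58 and 7.55 in nulliparous and 7.10, 7.52 and 6.96 in parous pools. The order of the subpopulations was turned round: Sca1-negative cells were the lower ones in virgins and the higher ones after pregnancy, with no overlap in either history. Id2 rose by 1.42 (SE 0.20, adjusted p = 1.3e-04) in Sca1-negative cells, the effect in Sca1-positive cells was -0.30 (SE 0.20), and the difference was -1.72 (SE 0.29, adjusted p = 0.00727).

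Tgfb3 encodes a TGF-beta ligand known to be made by alveolar cells at the start of involution. It was at 8.09, 7.56 and 7.40 in nulliparous and 9.74, 9.14 and 8.81 in parous Sca1-negative pools, and between 6.92 and 7.61 in the 6 Sca1-positive samples, where histories overlapped. It rose by 1.54 (SE 0.22, adjusted p = 1.1e-04) in Sca1-negative cells and the difference was -1.62 (SE 0.31, adjusted p = 0.0228). The call of Tgfb3 held in 5 of 12 fits that left out 1 sample. In the TGF-beta and BMP list, 2 of 20 measured genes were called for the difference, Tgfb3 and Id2, where 0.0953% of all genes were called. In the positive direction 0 were called, where 0.0451% of all genes were. The ligand genes Tgfb1 and Tgfb2 had differences of 0.04 and 0.66, the Id relatives Id1, Id3 and Id4 of -0.11, -0.27 and 0.00, and the list median was -0.06, against 0.03 over all genes.

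Krt5, the keratin of basal cells, rose in Sca1-negative cells. It was at 6.10, 7.05 and 6.92 in nulliparous and 8.04, 8.03 and 7.92 in parous Sca1-negative pools, and between 6.37 and 6.88 in the 6 Sca1-positive samples. The difference was -1.22 (SE 0.25, adjusted p = 0.0451), and it was called in 4 of 12 fits that left out 1 sample. In the basal samples of the series the group means of Krt5 were 11.47 to 11.75.

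The other basal markers were mixed. The mean of 12 basal and myoepithelial markers was 6.98 to 7.15 in parous and 6.55 to 6.80 in nulliparous Sca1-negative samples, and 6.25 to 6.50 and 5.99 to 6.37 in Sca1-positive samples. Krt5, Cnn1 and Myh11, the last 2 being genes of the contractile apparatus, rose in Sca1-negative cells, by 1.30, 1.21 and 0.93. Krt14 rose in Sca1-positive cells instead, by 1.54 (adjusted p = 1.1e-04), from 6.47, 7.14 and 6.88 to 8.20, 8.13 and 8.80, and its effect in Sca1-negative cells was 0.50. The differences of Cnn1 (-1.08, adjusted p = 0.243), Myh11 (-0.93, adjusted p = 0.357) and Krt14 (1.04, adjusted p = 0.366) did not pass. The basal transcription factor gene Trp63 had effects of 0.22 and 0.25, and Acta2 of 0.50 and 0.23, in Sca1-negative and Sca1-positive cells. Krt5 was the only 1 of the 12 called for the difference, where 0.0953% of all genes were called. The list median was -0.05, against 0.03 over all genes, and the part of basal cells in these values was not tested.

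Cavin2, Tmem47 and Antxr1 changed in Sca1-negative cells, the first 2 lower and Antxr1 higher in parous mice. Cavin2, a coat protein of caveolae, was at 7.21, 7.65 and 7.72 in nulliparous and 6.13, 5.65 and 5.99 in parous Sca1-negative pools, and between 4.92 and 5.39 in the Sca1-positive samples. Its difference was 1.58 (SE 0.32, adjusted p = 0.0387). The Sca1-positive values of Cavin2 lay under the sample medians of 5.813 to 5.924, and how much room they left for a fall was not tested. Tmem47, a transmembrane protein of cell junctions, was at 8.68, 8.97 and 8.84 in nulliparous and 8.12, 8.17 and 7.75 in parous Sca1-negative pools. In Sca1-positive cells Tmem47 was at 5.77, 6.46 and 6.23 in nulliparous and 7.16, 6.36 and 6.36 in parous pools, which overlap. It fell by 0.82 (adjusted p = 0.00788) in Sca1-negative cells and the difference was 1.29 (SE 0.23, adjusted p = 0.0164). The adjusted p rose to 0.0584 without parous Sca1-negative pool 3 and to 0.0698 without nulliparous Sca1-negative pool 2, with differences of 1.16 and 1.22, and it was 0.297 in the 12 luminal samples alone and 0.119 without nulliparous pool 3 in every subpopulation. Antxr1, a receptor that binds collagen and anthrax toxin, was at 5.44, 5.02 and 5.83 in nulliparous and 6.51, 6.24 and 6.74 in parous Sca1-negative pools. It lay between 5.18 and 5.55 in the Sca1-positive samples, and its difference was -1.17 (SE 0.24, adjusted p = 0.0451).

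Pigr and Slc34a2, genes of secretory epithelia, rose in Sca1-negative cells. Pigr encodes the receptor that carries immunoglobulin A across epithelium into milk and other secretions. It was at 5.21, 5.22 and 5.15 in nulliparous and 6.42, 6.31 and 6.03 in parous Sca1-negative pools, and between 4.90 and 5.26 in the Sca1-positive samples. The rise of 1.06 (SE 0.13, adjusted p = 1.5e-05) gave a difference of -0.89 (SE 0.18, adjusted p = 0.0387). Slc34a2, a sodium-driven phosphate transporter, was at 4.78, 4.85 and 4.59 in nulliparous and 5.58, 5.32 and 5.43 in parous Sca1-negative pools. Sca1-positive cells had Slc34a2 at 4.55, 4.88 and 4.47 in nulliparous and 4.42, 4.32 and 4.42 in parous pools, and the difference was -0.95 (SE 0.18, adjusted p = 0.0245). Histories of Slc34a2 did not overlap in either subpopulation, with parous samples higher in Sca1-negative and lower in Sca1-positive cells.

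The remaining 4 called genes were Dynap, Sh3rf1, Nudt4 and Gm5174. Dynap, which encodes a dynactin-associated protein, was at 6.14, 5.72 and 5.76 in nulliparous and 4.26, 4.75 and 4.41 in parous Sca1-negative pools, and between 4.34 and 4.87 in the Sca1-positive samples. These Sca1-positive values lay under the sample medians of 5.813 to 5.924. Like Trpm6 and Klk11, Dynap was high in virgin Sca1-negative cells only, and its difference was 1.36 (SE 0.24, adjusted p = 0.0146). Without parous Sca1-negative pool 1 it was 1.26 (adjusted p = 0.0744), and without parous Sca1-positive pool 2 it was 1.28 (adjusted p = 0.0587). Sh3rf1, a ubiquitin ligase and scaffold of JNK signalling, fell from 8.02, 8.18 and 7.62 to 7.13, 6.68 and 6.65 in Sca1-negative cells and lay between 6.60 and 7.08 in Sca1-positive cells (difference 1.25, SE 0.26, adjusted p = 0.0451). Nudt4, a hydrolase of inositol pyrophosphates, rose from 8.81, 8.75 and 8.89 to 9.55, 9.50 and 9.31 in Sca1-negative cells. In Sca1-positive cells it was at 8.44, 8.62 and 8.85 in nulliparous and 8.29, 8.55 and 8.17 in parous pools (difference -0.94, SE 0.19, adjusted p = 0.0451). Gm5174, named after its values were seen, went from 5.21, 5.12 and 5.06 to 5.84, 5.74 and 5.86 in Sca1-negative cells and from 5.37, 5.90 and 5.85 to 4.98, 5.05 and 5.25 in Sca1-positive cells. Neither effect of Gm5174 passed on its own, and the difference was -1.30 (SE 0.25, adjusted p = 0.0253).

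Over the 19 genes, parous and nulliparous values did not overlap for 17 in Sca1-negative cells and for 7 in Sca1-positive cells, against 17.7% and 12.9% of all genes. For 5 of the 19 neither subpopulation overlapped. These shares use the contrast that called the genes and support nothing further.

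The same differences can be read as a change in how far the subpopulations stand apart. Sca1-positive and Sca1-negative cells differed for 1690 genes (8.48%) in nulliparous and for 1949 genes (9.78%) in parous mice, and 1056 genes were called in the same direction in both histories. Among the 19 genes, 6 separated the subpopulations in nulliparous mice only: Trpm6, Klk11, Dynap, Vcam1, Dach2 and Sh3rf1. Trpm6 was lower in Sca1-positive than in Sca1-negative cells by -2.33 in virgins and -0.06 after pregnancy, and Klk11 by -2.08 and -0.45. Another 8 separated them in parous mice only: Syt14, Tmem116, Tgfb3, Slc34a2, Pigr, Nudt4, Antxr1 and Krt5. Syt14 differed by 0.27 in virgins and 1.82 after pregnancy, and Krt5 by -0.15 and -1.37. The other 5 were called in both histories. For Lipm the gap widened, from -0.75 to -2.68, and for Tmem47 and Cavin2 it narrowed, from -2.68 to -1.39 and from -2.35 to -0.77. Id2 (0.87 and -0.85) and Gm5174 (0.58 and -0.72) were the 2 genes of 19937 called in opposite directions.

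**Figure D3:**
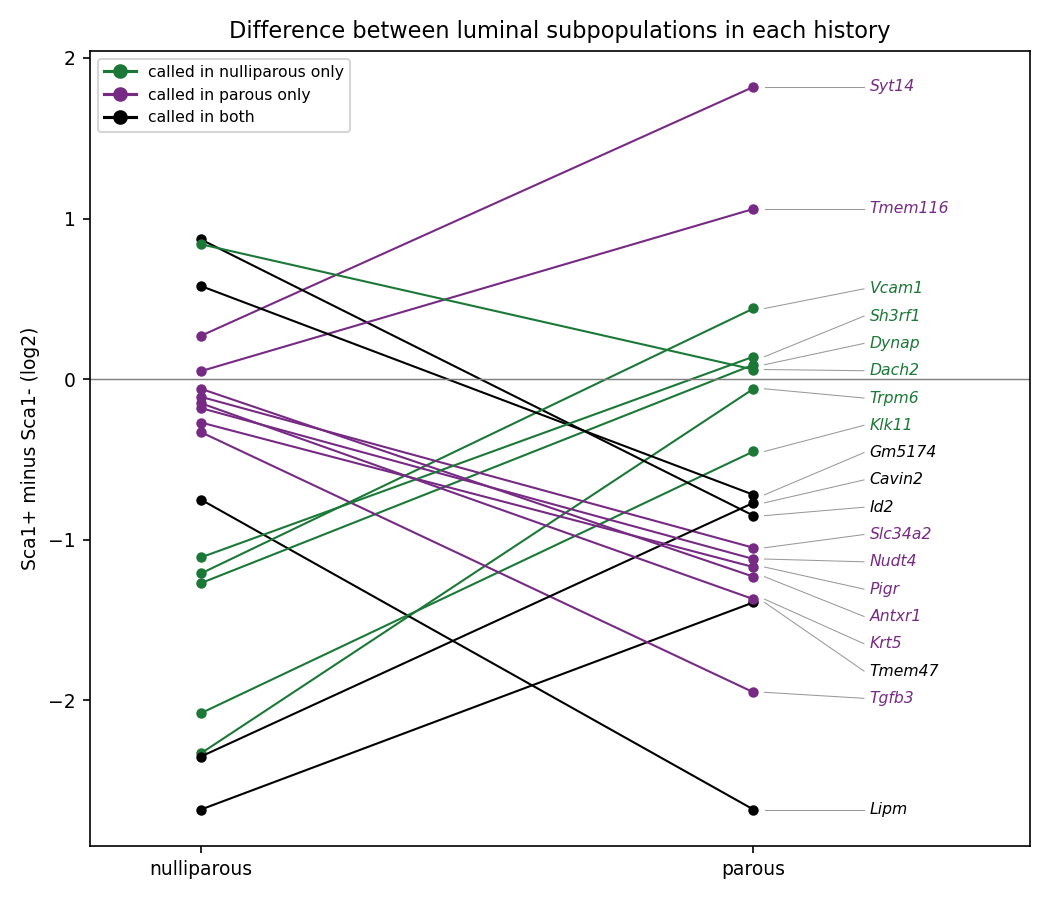
Sca1-positive minus Sca1-negative expression (log2, y axis) in nulliparous and in parous mice (x axis) for the 19 called genes, 1 line per gene, coloured by the history in which the subpopulations differed at an adjusted p under 0.05. The lines of Trpm6 and Klk11 rise from -2.33 and -2.08 towards 0, that of Lipm falls from -0.75 to -2.68, and those of Id2 and Gm5174 cross 0.

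The progenitor and hormone-sensing marker genes below had no called difference of parity effects. Kit differed by -3.11 in nulliparous and -3.14 in parous mice, which leaves a difference of -0.03 with a 95% interval of -0.81 to 0.75. For Elf5 the difference was -0.01 (95% interval -0.83 to 0.80), for Esr1 -0.38 (-0.96 to 0.21) and for Pgr, the progesterone receptor gene, -0.32 (-1.10 to 0.46). These intervals allow changes in either direction. Aldh1a3, an enzyme of retinoic acid synthesis used as a progenitor marker, fell by 1.22 (adjusted p = 0.00430) in Sca1-negative cells and had an effect of -0.85 (adjusted p = 0.117) in Sca1-positive cells, with a difference of 0.37 (95% interval -0.31 to 1.05).

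Total epithelial cells, basal cells and stromal cells were other samples of the series that gave further values for the same genes. Total epithelial cells take in the luminal cells, so their values are no independent support. Whether pools of the same number came from the same mice is not stated. Trpm6 fell by 1.08 (adjusted p = 0.00852) and Klk11 by 1.07 (adjusted p = 0.00164) in total epithelial cells after pregnancy, and Pigr rose by 0.82 (adjusted p = 7.2e-04). These were the 3 of 19 genes called there, where 0.446% of all genes were called. Lipm had an effect of 0.53 (adjusted p = 0.458) in total epithelial cells, from a mean of 4.57 ± 0.05 to 5.11 ± 0.37 (SD, n = 3 in each). In basal CD49f-low cells 0 of the 19 were called by limma at an adjusted p under 0.05 (0.968% of all genes). In basal CD49f-high cells, sorted in lots of 2000 with 2 parous samples, 4 were called, against 9.06% of all genes. Vcam1 fell there by 1.06 and Sh3rf1 by 0.90. Id2 rose by 0.72 and Cavin2 by 0.88, and only Cavin2 went opposite to its change in Sca1-negative cells. In stromal cells 1 was called (0.597% of all genes): Krt5 fell by 1.85 (adjusted p = 5.7e-07), opposite to its change in Sca1-negative cells. The stromal mean of Krt5 was 7.62 ± 0.23 in nulliparous and 5.77 ± 0.20 in parous samples (SD, n = 3 in each).

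The nulliparous Sca1-negative mean of Trpm6, 7.93 ± 0.19 (SD, n = 3), was the highest of its 12 group means, the next being 6.22 ± 0.48 in nulliparous total epithelial cells, and the parous means of all 6 subpopulations lay between 4.91 and 5.86. For Klk11 the same 2 groups led, with 6.75 ± 0.31 and 5.23 ± 0.42, and for Klk10 too, with 8.18 ± 0.53 and 6.81 ± 0.45. Lipm was highest in parous Sca1-negative cells at 7.37 ± 0.59, and Syt14 in parous Sca1-positive cells at 5.72 ± 0.20, while its other 11 means lay between 3.67 and 3.95. The means of Id2 lay between 6.63 and 8.05 in the 4 luminal groups and between 8.17 and 8.89 in the other 8 groups, with the lowest, 6.63 ± 0.09, in nulliparous Sca1-negative cells.

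**Figure D4:**
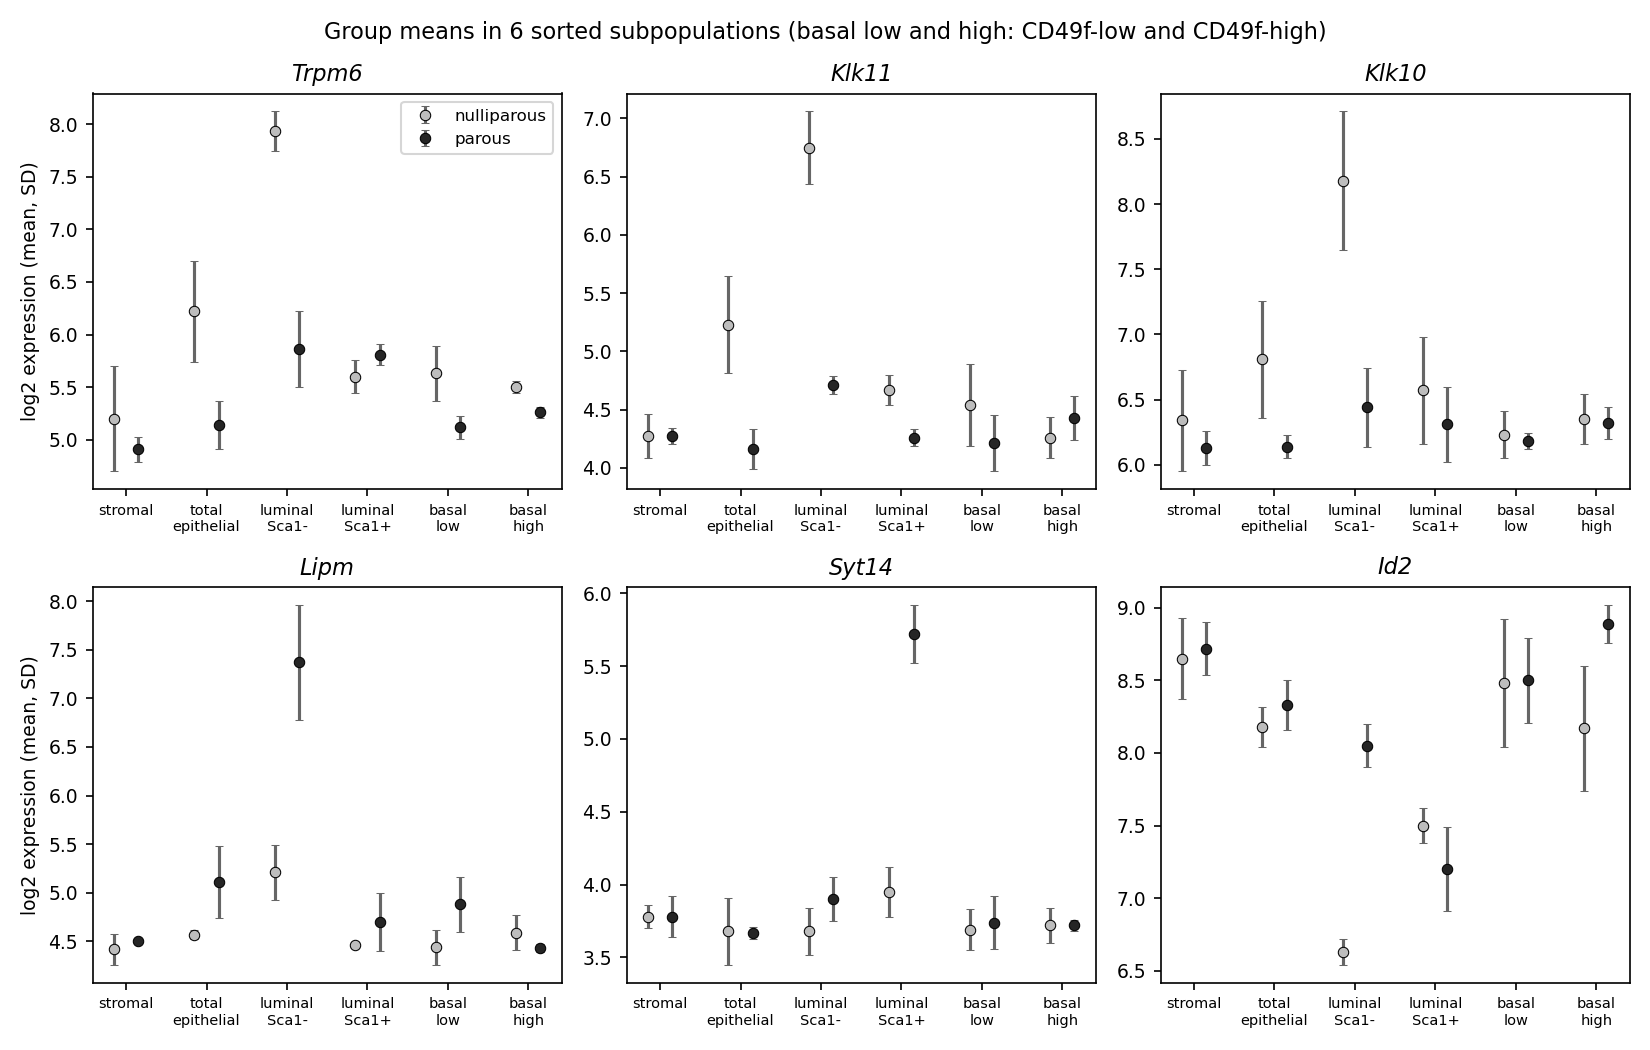
Group means of log2 expression with SD (y axis) for 6 genes in 6 sorted subpopulations (x axis), nulliparous in grey and parous in black, 3 samples per group except 2 for parous basal CD49f-high. Trpm6, Klk11 and Klk10 stand out in nulliparous Sca1-negative cells, Lipm in parous Sca1-negative cells and Syt14 in parous Sca1-positive cells.

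Some genes changed in both luminal subpopulations. Of the called parity effects, 19 genes were called in both with the same direction, which is 9.5% of the 200 in Sca1-negative cells and 15.7% of the 121 in Sca1-positive cells, and 0 in opposite directions. None of these 19 was called for the difference, and they are other genes than the 19 above. Csn1s2a, a casein gene, went from 5.51, 6.08 and 5.83 to 10.30, 10.29 and 9.89 in Sca1-negative cells and from 4.60, 6.44 and 4.61 to 9.15, 8.85 and 7.92 in Sca1-positive cells. Its effects of 4.36 and 3.42 differed by -0.93, with a 95% interval of -2.08 to 0.21. Itih2, which encodes a heavy chain that attaches to hyaluronan, fell in both, with effects of -1.98 and -2.32. Emb, Hepacam2 and Nmu, genes of 2 immunoglobulin-type membrane proteins and of the neuropeptide neuromedin U, rose in both, by 2.19 and 1.91, 1.83 and 2.38, and 1.52 and 2.23. Itih2, Emb, Hepacam2 and Nmu were chosen after their values were seen, and Csn1s2a was in a panel chosen with earlier results of these data known.

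A parity effect called in one subpopulation was not by that shown to differ from the other. Of the 181 genes called in Sca1-negative cells and not in Sca1-positive cells, 14 were called for the difference, and 149 had the same sign of effect in Sca1-positive cells. Of the 102 called in Sca1-positive cells only, 4 were called for the difference and 82 had the same sign in Sca1-negative cells. The SE of a difference was larger than that of a single effect, with medians of 0.21 and 0.15.

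In the milk protein list, 4 of 16 measured genes rose in Sca1-negative cells and 3 in Sca1-positive cells, where 0.662% and 0.426% of all genes did, with median effects of 0.64 and 0.72, against -0.04 and -0.01 over all genes. The median difference was -0.33, and 0 of 16 were called for the difference by limma, as 0.0953% of all genes were. At an unadjusted p under 0.05, 3 of 16 passed, all with a negative difference, among 5.89% of all genes in either direction. Btn1a1, a membrane protein of the milk fat globule, rose by 1.57 (adjusted p = 1.5e-05) in Sca1-negative cells and had an effect of 0.70 (adjusted p = 0.0975) in Sca1-positive cells, with a difference of -0.87 (95% interval -1.41 to -0.32, adjusted p = 0.425). Cel, a lipase secreted into milk, rose by 1.85 in Sca1-negative cells, from 6.24, 6.69 and 6.24 to 8.30, 8.55 and 7.87, and its difference of -1.36 (adjusted p = 0.160) did not pass. Csn2 and Csn1s1, encoding major caseins, were the most variable: nulliparous Sca1-positive pools had Csn2 at 6.10, 9.23 and 6.19, with pool 2 far above the other two. Their differences of 0.98 (95% interval -1.0 to 2.96) and 1.99 (-0.48 to 4.46) are therefore little constrained.

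With 0.0953% of all genes called for the difference, a count of 0 in a list of this size is near the background and says nothing about the list. The lists were chosen with earlier results of these data known, so a count of 1 is no separate evidence either. In the acute phase and innate defence list, Pigr was the only 1 of 19 measured genes called. At an unadjusted p under 0.05, 3 of its 19 genes passed, all with a negative difference, against 5.89% of all genes in either direction. Its median difference was -0.45, against 0.03 over all genes. In the Wnt list 0 of 23 were called, in the Notch list 0 of 19, in the EGF family list 0 of 12, in the IGF list 0 of 13, in the proliferation list 0 of 29, in the circadian clock list 0 of 16 and in the extracellular matrix list 0 of 22, all by limma at an adjusted p under 0.05. At an unadjusted p under 0.05 these lists had 4, 1, 1, 2, 1, 3 and 4 members, against 5.89% of all genes. Their medians of the difference ranged from -0.04 (clock) to 0.24 (proliferation). Proliferation genes had median effects of -0.66 in Sca1-negative and -0.28 in Sca1-positive cells, against -0.04 and -0.01 over all genes. Birc5, a mitotic gene, fell by 1.62 (adjusted p = 0.00169) in Sca1-negative cells as the only 1 of 29 called, where 1.00% of all genes were called. The list mean was spread over 5.99 to 6.91 in the nulliparous Sca1-negative samples and lay at 5.64 to 5.89 in the parous ones. In the circadian list, Hlf and Dbp rose in Sca1-positive cells by 1.30 (adjusted p = 9.9e-07) and 0.88, and Nr1d1 and Rora in Sca1-negative cells by 1.05 and 0.71. All 4 had positive effects in the other subpopulation too, of 0.44 to 0.67. In the Wnt list, the receptor genes Fzd7 and Lgr4 rose in Sca1-negative cells, by 0.84 (adjusted p = 1.8e-04) and 0.80 (adjusted p = 0.0389), and Sfrp1, a secreted Wnt antagonist gene, rose by 1.14 (adjusted p = 0.0277) in Sca1-positive cells. Rspo1, a secreted enhancer of Wnt signalling, fell by 1.06 (adjusted p = 0.00355) in Sca1-negative cells, against -0.23 in Sca1-positive cells, and its difference of 0.83 did not pass (adjusted p = 0.560). In the early response and stress list 0 of 20 genes were called, 5 passed at an unadjusted p under 0.05, all with a negative difference, and the median was -0.25. Sparc, a matrix glycoprotein gene, rose by 1.09 in Sca1-positive cells, against 0.13 in Sca1-negative cells, with a difference of 0.97 (adjusted p = 0.143).

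The 10 genes next in order of p had adjusted p values from 0.0551 to 0.0944 and did not pass. Ecrg4, a secreted peptide precursor gene, had a difference of -2.0 (SE 0.43, adjusted p = 0.0611). It went from 6.59, 5.67 and 6.14 to 8.69, 8.67 and 8.04 in Sca1-negative cells, while its Sca1-positive histories overlapped. Khdrbs3, Lama3 and Ache, genes of an RNA-binding protein, a laminin chain and acetylcholinesterase, rose in Sca1-positive cells by 1.30, 0.88 and 1.5, with differences of 1.11, 1.03 and 1.27. Ache was at 5.43, 5.15 and 5.44 in nulliparous and 7.05, 7.28 and 6.21 in parous Sca1-positive pools, and between 5.14 and 5.95 in the Sca1-negative samples.

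**Figure D5:**
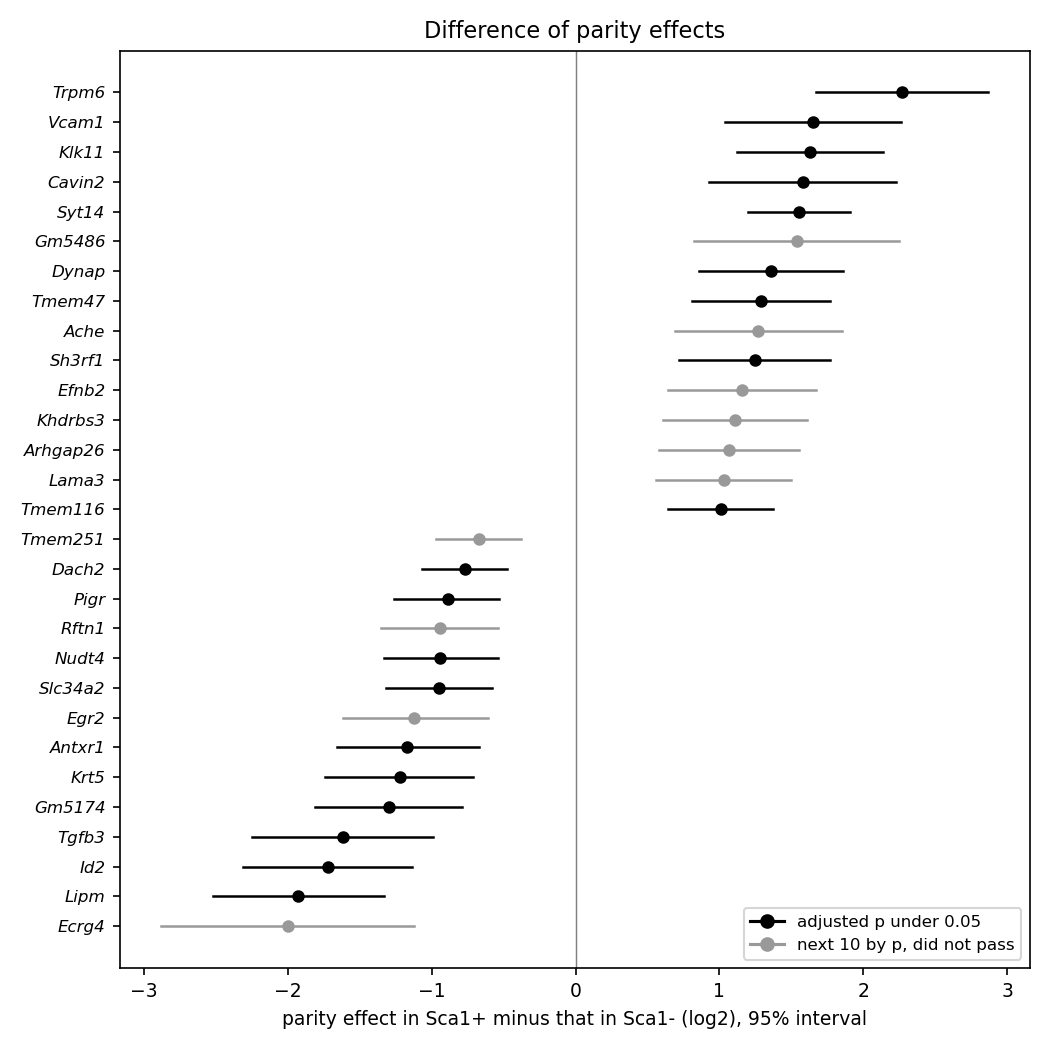
Difference of parity effects, Sca1-positive minus Sca1-negative (log2, x axis), with its 95% interval for the 19 called genes in black and the next 10 by p in grey (y axis). Trpm6 lies highest at 2.27, Lipm has the lowest called value at -1.93, and all 29 intervals leave out 0 before adjustment over genes.

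The calls differ in how far they depend on single samples. Syt14, Trpm6, Lipm, Klk11 and Id2 kept the call in all 12 fits that left out 1 luminal sample, and the other 14 lost it in at least 1. The number of called genes was 8 without parous Sca1-negative pool 1, 9 without nulliparous Sca1-negative pool 2 or nulliparous Sca1-positive pool 2, 10 without parous Sca1-positive pool 2, and 30 without nulliparous Sca1-negative pool 1. In the 12 luminal samples alone, 7 of the 19 kept the call: Syt14, Trpm6, Klk11, Id2, Tmem116, Gm5174 and Cavin2. The other 12 had adjusted p values of 0.0660 (Dynap) to 0.297 (Tmem47) there, among them Krt5 with 0.290, Antxr1 with 0.227 and Tgfb3 with 0.195. With 3 samples in a group, the number of arrays limits the precision.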

How the data were processed

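Expression of RNA amplified from sorted cells was measured on 1-colour Affymetrix arrays, 1 per sample. The authors deposited 1 log2 value per probe set and sample, with a range of 1.74 to 13.28 and column medians of 5.813 to 5.924. The submitters' processing notes name affy. No version, background correction, normalization or genome build is given in the sources used here. A supplied annotation gave a single symbol for 21640 of 34760 probe sets, several for 1321 and none for 11799, and only the first were used. Where several probe sets named a gene (954 genes), the brightest on average was kept.

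All 35 samples were fitted as 12 group means with limma 3.58.1 in R 4.3.3 (lmFit, contrasts, eBayes with a trend), so that groups share an estimate of the spread. Adjustment was Benjamini-Hochberg's, over 19937 genes, and a gene with an adjusted p under 0.05 was called. The fit was also run on simulated data with known differences and independent noise in each sample. Such data cannot show what samples that deviate together do to the calls. No detection calls came with the values.

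Members and gene lists were chosen with earlier results of these data known. Named genes were the called genes without predicted symbols, the 3 markers, called list members, the next 10 by p and a panel. List members with a called parity effect and genes that changed by over 1.5 in both subpopulations were added after values were seen. Whether pools of the same number in different subpopulations came from the same mice is not stated. Alternatives were eBayes without a trend, array weights, quantile normalization, leaving out dim probe sets (mean under 5.87), averaging probe sets, the 12 luminal samples alone, the pool or number as a block, leaving out each luminal sample, and leaving out nulliparous pool 1 or 3 everywhere. Promoters are RefSeq's, and 14 of the 19 called genes had one in the table.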

Additional observations from a re-analysis of the deposited data

Results flagged for a closer look

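The genes below are listed because the test of the difference itself, Sca1-positive minus Sca1-negative parity effect, passed for each of them. The number after each gene is that difference in log2 units. The call held in all 12 fits that left out 1 luminal sample for Syt14 (1.55), Trpm6 (2.27), Lipm (-1.93), Klk11 (1.63) and Id2 (-1.72). For the other 14, the second number gives in how many of the 12 fits the call held. Positive differences of this kind were Tmem116 (1.01, 10 of 12), Dynap (1.36, 10 of 12), Vcam1 (1.65, 8 of 12), Tmem47 (1.29, 10 of 12), Cavin2 (1.58, 3 of 12) and Sh3rf1 (1.25, 3 of 12). Negative ones were Dach2 (-0.77, 7 of 12), Tgfb3 (-1.62, 5 of 12), Slc34a2 (-0.95, 6 of 12), Gm5174 (-1.30, 4 of 12), Pigr (-0.89, 3 of 12), Nudt4 (-0.94, 3 of 12), Antxr1 (-1.17, 3 of 12) and Krt5 (-1.22, 4 of 12). The direction of all 19 was kept in every one of these fits. Vcam1 lost the call without parous Sca1-negative pool 2, parous Sca1-positive pool 1, nulliparous Sca1-negative pool 2 or nulliparous Sca1-positive pool 2, with adjusted p values of 0.0510 to 0.0595.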

How the results depend on the processing

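For the difference, 19 genes were called; the count was 63 with array weights, 6 without dim probe sets (10 of the 19 were not tested there), 35 without nulliparous pool 1 and 12 without nulliparous pool 3 in every subpopulation, and 8 to 30 when 1 luminal sample was left out. It was 20 without a trend, with quantile normalization (12 positive, 8 negative, against 9 and 10) and with averaged probe sets, and 13 in the 12 luminal samples alone (9 positive, 4 negative, 7 of them among the 19). The parity effect in Sca1-negative cells, called for 200 genes, gave 614 with array weights, 354 without nulliparous pool 1, and 81 to 250 with 1 sample left out. Those below 134 were 128 without parous pool 1, 113 without parous pool 2 and 81 without nulliparous pool 2. With quantile normalization it was 174 (97 higher, 77 lower, against 132 and 68). In Sca1-positive cells, called for 121 genes, it gave 194 with array weights, 79 without nulliparous pool 3, and 72 to 127 with 1 sample left out (72 without parous pool 1 or 2, 77 without nulliparous pool 2). The counts between subpopulations stayed within 1.5 times, at 1359 to 1973 in parous and 1243 to 1678 in nulliparous mice with 1 sample left out. The causes of these changes were not tested.

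Same-numbered Sca1-negative and Sca1-positive samples of a history deviated together at positive correlations of 0.08 to 0.21, over 0.1 for 4 of 6 pairs. All 12 samples correlated best with their own number, which reads the same 6 pairs from both sides and is no separate evidence. The main fit did not use the numbers as a pairing, and these correlations do not settle whether same-numbered samples share mice. With the pool as a fixed replicate block in the 12 luminal samples, 29 genes were called for the difference, 12 of them among the 19. Tmem116, Tmem47, Dach2, Pigr, Nudt4, Antxr1 and Krt5 lost the call in that limma fit, with adjusted p values of 0.0515 to 0.137. With the pool as a random block the count was 26 over all samples and 21 in the luminal samples, the last added after seeing the data. With the number as a fixed block, 329 genes were called in Sca1-negative cells and 140 in Sca1-positive cells.

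Trpm6 kept the call under every alternative run, and Syt14 and Klk11 under all but the filter on dim probe sets, where they were among the 10 genes not tested. Lipm lost it in the 12 luminal samples alone (0.0692) and Id2 without nulliparous pool 3 (adjusted p = 0.104). The sign turned for genes whose difference was small and not called: Dusp1 to 0.03 without nulliparous pool 1, Emb to 0.06 with array weights and 0.17 without pool 3, Kit to 0.03 with quantile normalization and 0.07 without pool 1, Krt8 to 0.00 without pool 1 and Elf5 to 0.04 with quantile normalization. With 1 sample left out the ranges were -0.72 to 0.12 for Emb, -0.20 to 0.11 for Kit, -0.02 to 0.05 for Krt8, -0.18 to 0.15 for Elf5, -0.02 to 0.24 for Itgb3 and -0.42 to 0.08 for Lipa.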
